A study of Rattus norvegicus with 9 samples.

Results

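The genes described here are 45 genes of the cell cycle and DNA replication, measured in rat uterus after ovulation induction with and without electroacupuncture. They were listed by gene symbol, and each gene was read from its brightest probe set. Of the 45, 43 had a probe set with a single gene symbol. Tpx2 had none, and Rrm2 was represented only by 2 probe sets that also carry the symbol Rrm2l1, so neither is reported. Of these 43, 37 passed the filter on dim probe sets and were tested among 10973 genes. The remaining 6 (Ccne1, Aurka, Aurkb, Bub1b, Kif11 and Cenpa) are given by value only.

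Uterine tissue of female rats was hybridised to Affymetrix arrays, 3 arrays per group and 9 in all. Treatment rats (arrays 31, 32 and 33) had electroacupuncture (Guanyuan and Sanyinjiao; 15 min sessions) over the 7 days preceding induction, kept on receiving it afterwards, and were given the hormones of the model rats. Model rats (21, 22 and 23) were injected with PMSG at 0.5 U per animal, a serum gonadotropin that makes follicles grow, followed after 48 h by hCG, the hormone that makes them ovulate. Control rats (41, 42 and 43) were left untreated, and the labels do not state their oestrous stage. The labels describe 18 rats, 6 per group, and do not tie each array to its own animal, so p-values measure only the spread between these arrays, which may be technical.

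Cells that divide copy their DNA in S phase and separate it in mitosis. D-type and E-type cyclins with their kinases drive the step into S phase. There MCM helicases open the DNA, and PCNA is the sliding clamp of the polymerases that copy it. Cyclin A and B with Cdk1 drive mitosis, which ends when the ubiquitin ligase APC/C with Cdc20 and Ube2c destroys the cyclins. CDK inhibitors of the p21, p27 and p57 type hold cells out of the cycle. In the rodent uterus, oestrogen stimulates division of the epithelium, progesterone opposes it there, and stromal cells divide when they become decidual.

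Promoters of mitotic genes are known to carry a cell cycle homology region (CHR), bound by the DREAM and B-MYB complexes, near CCAAT boxes bound by NF-Y, whereas replication genes often carry E2F sites. RefSeq promoter windows (GRCr8, 250 bases before to 50 after the annotated start) were matched for 35 of the 45 genes. Both strands were searched for TTTGAA (CHR), for CCAAT, and for an E2F site as TTTCCCGC, TTTCGCGC, TTTGCCGC or TTTGGCGC. Matches may share letters, as an E2F site and a CCAAT box do in Mcm7. Mitotic genes here are those of mitotic entry, spindle, checkpoint, cytokinesis and mitotic exit, with Mki67 and Top2a. A CHR was present in 66.7% of the 18 promoters of mitotic genes, against 18.3% of all 33469 windows. These 18 include Aurka, Bub1b, Cenpa and Kif11, which were below the filter. They lack Ccna2, Foxm1 and Ube2c, which were tested but had no matched window. CHR and CCAAT occurred together in 61.1% of the mitotic promoters, against 7.41% of all windows. A CCAAT box, with or without a CHR, was present in 88.9% of mitotic promoters, 60% of replication promoters and 37.5% of all windows. The CHR was present in 20% of replication promoters. An E2F site was present in 70% of the 10 promoters of replication genes, in 11.1% of the mitotic promoters and in 2.14% of all windows. Replication genes here are the MCM genes, Pcna, Rrm1, Tyms, Tk1 and Slbp, and Mcm4 had no matched window. These shares describe letters in a window and do not show that a factor was bound in these uteri. The stretches below show the 140 bases before the start of 6 mitotic genes and 2 MCM genes described later, 5′ to 3′ on the gene's strand, with the searched motifs of either strand in capitals. All 6 mitotic stretches hold both a CHR and a CCAAT box, so they do not stand for all 18 mitotic promoters.
Ccnb2 (chr8:79981659-79981798, minus strand): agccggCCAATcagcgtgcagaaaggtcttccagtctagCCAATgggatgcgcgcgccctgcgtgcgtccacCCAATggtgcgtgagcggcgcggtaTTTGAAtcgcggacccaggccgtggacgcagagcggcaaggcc
Cdk1 (chr20:19265153-19265292, plus strand): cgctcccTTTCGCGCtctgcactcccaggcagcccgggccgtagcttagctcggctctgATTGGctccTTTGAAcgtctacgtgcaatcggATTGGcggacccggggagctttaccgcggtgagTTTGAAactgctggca
Cdc20 (chr5:137255800-137255939, minus strand): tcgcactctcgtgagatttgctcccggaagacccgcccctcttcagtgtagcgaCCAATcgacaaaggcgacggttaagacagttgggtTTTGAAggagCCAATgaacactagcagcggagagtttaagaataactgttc
Kif22 (chr1:191080879-191081018, minus strand): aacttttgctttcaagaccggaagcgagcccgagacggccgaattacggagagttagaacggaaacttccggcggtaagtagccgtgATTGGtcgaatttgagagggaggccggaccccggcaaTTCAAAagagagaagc
Prc1 (chr1:143659341-143659480, plus strand): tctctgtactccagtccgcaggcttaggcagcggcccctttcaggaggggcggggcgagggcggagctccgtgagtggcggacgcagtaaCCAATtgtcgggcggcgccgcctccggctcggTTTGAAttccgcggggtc
Top2a (chr10:84473094-84473233, minus strand): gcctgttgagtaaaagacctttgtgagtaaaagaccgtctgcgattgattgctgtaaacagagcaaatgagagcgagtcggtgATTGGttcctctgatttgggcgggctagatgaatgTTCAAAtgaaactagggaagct
Mcm5 (chr19:13488673-13488812, plus strand): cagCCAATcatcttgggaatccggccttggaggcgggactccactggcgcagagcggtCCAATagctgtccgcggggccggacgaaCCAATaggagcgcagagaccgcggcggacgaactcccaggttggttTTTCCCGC
Mcm7 (chr12:22163179-22163318, minus strand): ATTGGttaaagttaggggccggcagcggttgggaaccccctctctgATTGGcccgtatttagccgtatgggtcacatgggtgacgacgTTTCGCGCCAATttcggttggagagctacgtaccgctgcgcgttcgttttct

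**Figure D1:**
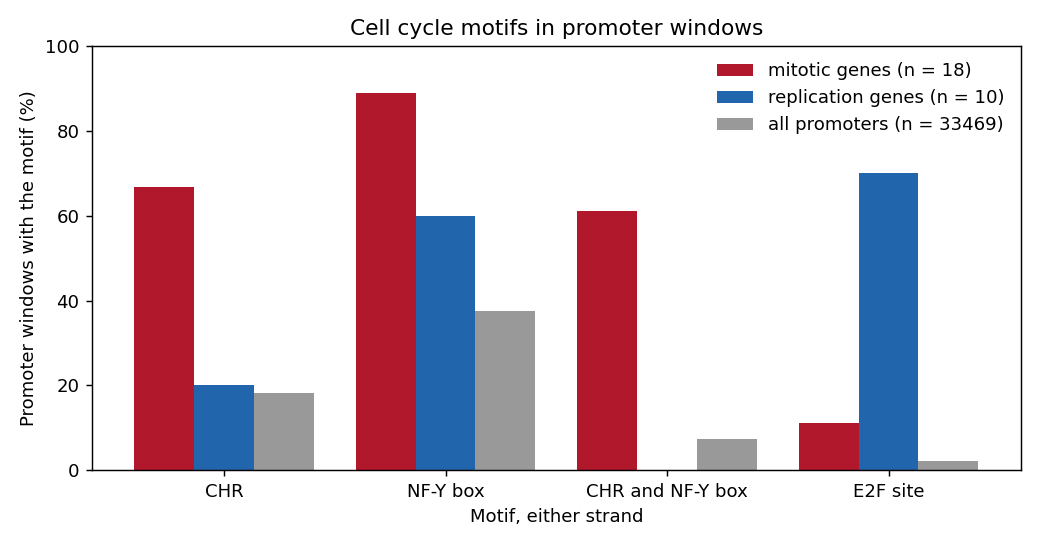
Bars give the percentage of promoter windows that hold each motif on either strand, for mitotic genes (n = 18), replication genes (n = 10) and all windows (n = 33469); CHR is the cell cycle homology region and the NF-Y box is the CCAAT box. The CHR stands out in mitotic genes at 66.7% and the E2F site in replication genes at 70%, against 18.3% and 2.14% of all windows.

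Control 43 stood apart from the other untreated arrays. Over all probe sets, its log2 intensities correlated most closely with model 21 (r = 0.985) and less with control 41 (0.9446) and control 42 (0.9594), while controls 41 and 42 correlated at 0.9889. Summed intensity of 12 epithelial markers was 4082.2 to 6357.5 on treatment arrays and 3554.7 to 4711.2 on model arrays, against 4673.9 in control 43 and 14501 and 19835.7 in controls 42 and 41. Bright genes such as Krt8, Krt19 and Prom1 carried much of these sums, and the markers did not all go one way. Cldn3 (1047) and Cldn4 (134) were highest in control 43, and Epcam measured 1310 there, near controls 42 (1423) and 41 (1632). All 12 epithelial, 8 smooth muscle and 7 stromal markers passed the filter, and none of 4 measured ovary and oviduct markers did. Smooth muscle sums were 17369.5 to 21487.3 (treatment), 18432.4 to 21917 (model) and 11098.6 to 18015.3 (control), and stromal sums 6559.6 to 10904.2, 8863.9 to 11534.8 and 6252 to 11720.3. Endothelial sums were 200.1 to 509.5, 564.6 to 610.6 and 401.2 to 739.4 in the same order of groups, and adipocyte sums 133.4 to 250.7, 206.7 to 272.5 and 72.6 to 524.3. Model 22 had the highest macrophage sum (1719.7), lymphocyte and natural killer sum (255.7) and neutrophil sum (150.3) of the 9 arrays, and treatment 32 the highest erythroid sum (1034.1). The 3′ to 5′ ratio of Actb, a measure of RNA integrity, ran from 5.066 to 7.8392, with the highest value in control 43. In whole tissue, fewer cells of a type and less RNA per cell cannot be told apart. Results below are also given without control 43 where that changes the call. Control 43 was singled out from these same intensities, and only controls 41 and 42 remain without it. The p-values without control 43 may therefore be too small.

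None of the 37 genes passed limma at an adjusted p under 0.05 in any of the 3 comparisons. Over all genes tested, 0.0273% passed when model was compared with control, 0.51% when treatment was compared with control and 0% in treatment against model. At an unadjusted p under 0.05, 3 of the 37 lay past the threshold in model against control (12.4% of all genes), 6 did so in treatment against control (17.4%) and 6 between treatment and model (14.7%). Groups did not overlap for 3, 6 and 7 of the 37, where the shares over all genes were 14.5%, 23.3% and 28%. Except for the unadjusted count in treatment against model, which was slightly above, these shares of the 37 were below those of all genes. Of the 37, 26 were dimmer than the median gene tested, and the log2 scale used here understates changes of dim genes. The part of this dimness in the shares was not tested. Non-overlapping genes were Cdk2, Tyms and Slbp in model against control (all lower). In treatment against control they were Cdkn1c, Slbp and Prc1 (higher) and Mcm4, Rrm1 and Tyms (lower). In treatment against model they were Slbp (higher) and Ccnd2, Cdk4, Cdkn1b, Mcm4, Mcm7 and Rrm1 (lower). Positive log2 fold changes were found for 25 of the 37 in model against control (53.5% of all genes), for 18 in treatment against control (42.2%) and for 10 in treatment against model (38.9%). The median log2 fold change of the 37 was 0.11 between model and control, -0.01 between treatment and control and -0.18 between treatment and model, beside 0.02, -0.04 and -0.05 over all genes. Model and treatment were compared with the same control arrays, and treatment against model uses the same arrays again. The 3 comparisons are therefore not independent.

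**Figure D2:**
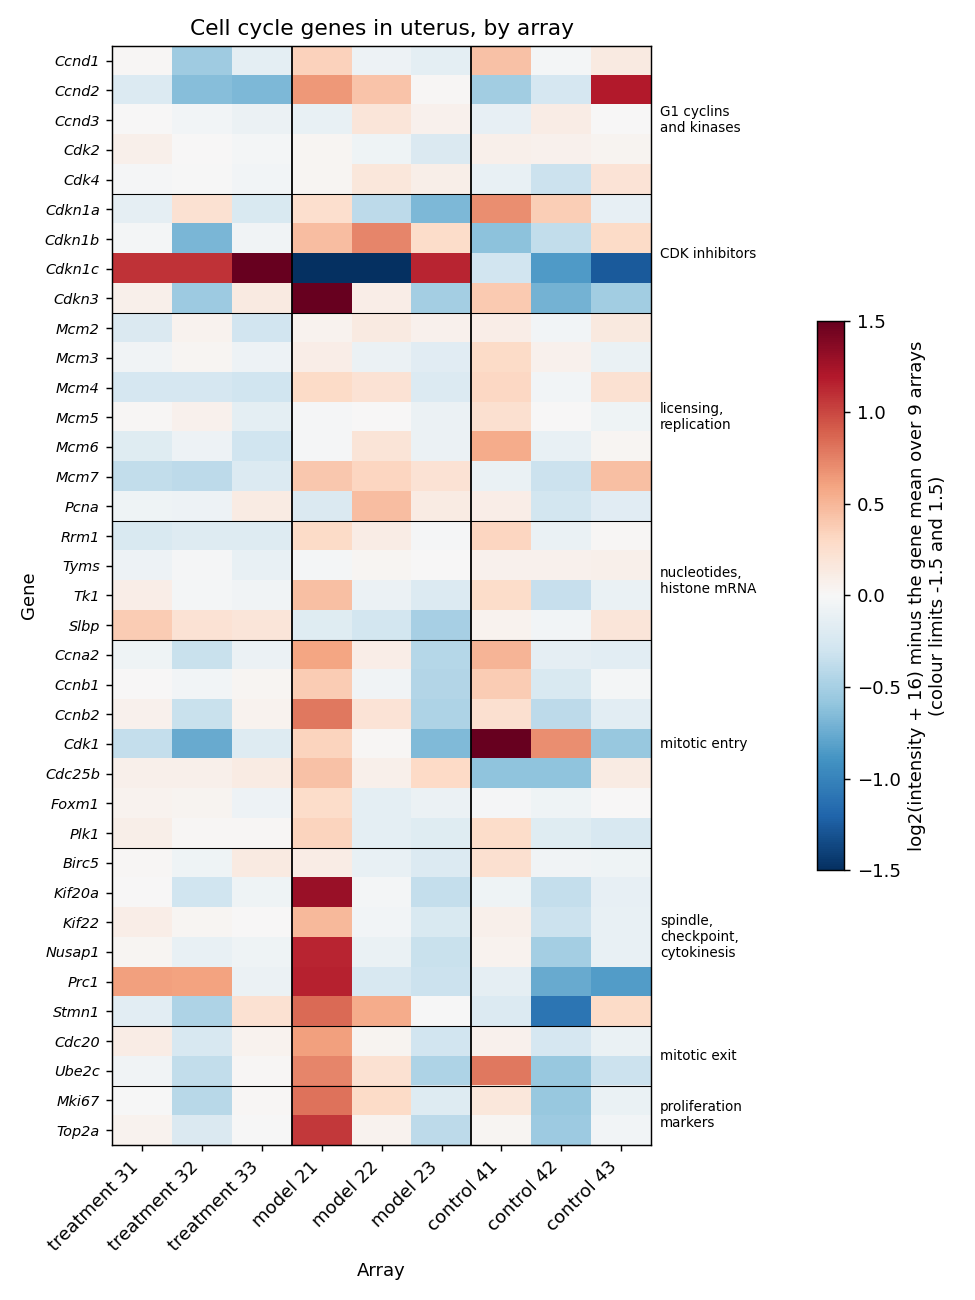
Each row is a gene and each column an array; colour is log2(intensity + 16) minus the gene's mean over the 9 arrays, clipped at -1.5 and 1.5, with rows grouped by role and groups separated by vertical lines. Model 21 is highest for most mitotic genes, and Cdkn1c is high on the 3 treatment arrays and model 23.

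Mitotic genes varied widely between arrays of the same group. Of the 17 mitotic genes tested, 14 had their highest value in model 21 and the other 3 in control 41, whereas over all genes 12.7% were highest in model 21 and 19.8% in control 41. The lowest value fell in control 42 for 7 of the 17 and in model 23 for 5, beside 8.2% and 5.22% of all genes. Expressed as the mean of log2 values centred gene by gene, the mitotic genes lay at 0.67 in model 21, 0.04 in model 22 and -0.28 in model 23. Treatment arrays lay closer together, at 0.03, -0.17 and 0.01, and controls 41, 42 and 43 at 0.19, -0.35 and -0.15. The median SD of a mitotic gene within a group was 0.15 in treatment, 0.50 in model and 0.31 in control, beside 0.11, 0.12 and 0.15 over all genes. All 17 mitotic genes had a larger SD among model arrays than the median gene. Model 21 also had the highest Gapdh 3′ to 5′ ratio (1.3931, against 1.1027 to 1.2975 on the other arrays), the lowest macrophage (457.4), neutrophil (26.6) and epithelial (3554.7) sums and the highest smooth muscle sum (21917) of the 9 arrays, and their part in these values was not tested.

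**Figure D3:**
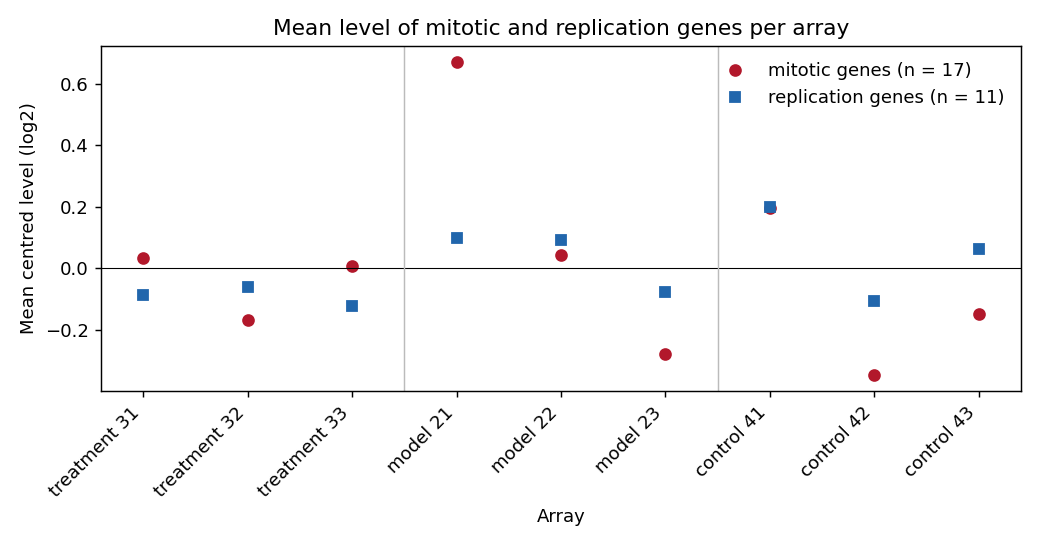
Points give, for each array, the mean of gene-centred log2 values over 17 mitotic genes (circles) and 11 replication genes (squares). Model 21 stands at 0.67 for mitotic genes, above all other arrays, while replication genes stay between -0.12 and 0.20.

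Mki67, a nuclear protein of dividing cells, measured 24.9, 14.7 and 25.6 in treatments 31, 32 and 33, 56, 34.1 and 20 in models 21, 22 and 23, and 30, 11.7 and 22.4 in controls 41, 42 and 43 (deposited intensity, linear scale). Model 21 was the highest, and the 3 groups overlapped. Its log2 fold change was 0.47 (SE 0.27, limma adjusted p = 0.481) in model against control, 0.03 (SE 0.27, adjusted p = 0.964) in treatment against control and -0.44 (SE 0.27, adjusted p = 0.46) in treatment against model.

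Top2a, the DNA topoisomerase that untangles chromosomes, measured 32.7, 24.5 and 30.8 on treatment arrays, 81.9, 33 and 19.8 on model arrays and 32.1, 16.4 and 29.8 on control arrays. Model 21 exceeded every other array, and a second probe set of Top2a was also highest there. The 95% interval of its log2 fold change in model against control ran from -0.34 to 1.18, and in treatment against control from -0.63 to 0.88. Both intervals include 0.

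Among mitotic entry genes, Ccnb2, a B-type cyclin, measured 35.2, 22.8 and 34.5 on treatment arrays, 68.7, 40.3 and 19.4 on model arrays and 41.7, 21.1 and 27.7 on control arrays. Ccna2, cyclin A, was dim and passed the filter through 3 arrays only, with 13, 8.11 and 12.5 on treatment arrays, 29.8, 16.5 and 6.63 on model arrays and 27.1, 11.5 and 11.2 on control arrays. Both cyclins were highest in model 21, and their groups overlapped in every comparison. Ccnb1, Foxm1 and Plk1 ranged over 14.5 to 38, 19.2 to 31.4 and 41.1 to 69, and the largest of their log2 fold changes in size was 0.09 (Plk1, treatment against control).

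Cdk1, the kinase of mitotic entry, measured 36.1, 23.6 and 42.4 on treatment arrays, 68.6, 51.6 and 26.4 on model arrays, and 173, 92.6 and 29 in controls 41, 42 and 43. Controls 41 and 42 were the highest of the 9 arrays and control 43 lay within the range of the model and treatment arrays. Its log2 fold change was -0.98 (SE 0.48, limma adjusted p = 0.333) in treatment against control and -0.64 (SE 0.48, adjusted p = 0.563) in model against control. Without control 43 they were -1.54 (adjusted p = 0.0366) and -1.20 (adjusted p = 0.0556), whereas without control 41 they were -0.50 and -0.17. The summed epithelial markers were also highest in controls 41 and 42, and their part in the Cdk1 values was not tested.

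Cdc25b, the phosphatase that activates Cdk1, measured 42, 41.9 and 43.5 on treatment arrays, 58.2, 41.7 and 51.4 on model arrays, and 20.1, 20.1 and 43.9 in controls 41, 42 and 43. Controls 41 and 42 were the lowest 2 arrays, whereas control 43 lay among the hormone-treated arrays. Cdc25b had a log2 fold change of 0.63 (SE 0.19, adjusted p = 0.293, limma) in model against control and 0.45 (SE 0.19, adjusted p = 0.28) in treatment against control. Without control 43 it was 0.87 (adjusted p = 0.00502) and 0.69 (adjusted p = 0.0106), and Cdc25b passed in both. Controls 41 and 42 hold the same dim deposited value (20.1494), so without control 43 the control group had no spread. The SE in model against control, which pools the spread of all groups, was then 0.105. In both calls the control level was these tied values alone, and how far the tie lowered the SE was not tested. Cdc25b was low, and Cdk1 high, in controls 41 and 42.

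Of the spindle and cytokinesis genes, Prc1, which bundles microtubules of the central spindle, measured 160, 159 and 92.4 on treatment arrays, 240, 81.5 and 76.3 on model arrays and 88.8, 52.1 and 48.4 on control arrays. The 3 treatment arrays lay above the 3 controls, with a log2 fold change of 0.95 (SE 0.40, limma adjusted p = 0.28). In model against control it was 0.77 (SE 0.40, adjusted p = 0.45), and 0.30 without model 21. Treatments 31 and 32 were high for Prc1 without being high for Top2a or Mki67.

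Stmn1, a protein that destabilises microtubules, measured 143, 113 and 191 on treatment arrays, 303, 245 and 160 on model arrays and 137, 66.8 and 199 on control arrays. Its log2 fold change in model against control was 0.81 (SE 0.36, limma adjusted p = 0.407), and 0.43 without control 42. Kif20a, a kinesin of cytokinesis, measured 113 in model 21 and 25.1 to 36.8 on the other 8 arrays. Nusap1, a spindle microtubule protein, measured 92.8 in model 21 and 18.6 to 35.1 on the others, and its second probe set was also highest in model 21. Kif22 ranged from 19.8 to 46.9, with its highest value in model 21. Birc5 (survivin) ranged from 14.1 to 24.9 and was highest in control 41. For mitotic exit, Ube2c, the ubiquitin-conjugating enzyme of the APC/C, measured 49.9, 37 and 53 on treatment arrays, 97.2, 64 and 33.4 on model arrays and 102, 29.9 and 38.5 on control arrays. Control 41 and model 21 were high and the groups overlapped. Cdc20 ranged from 27.3 to 64.7 and was highest in model 21. Its other probe sets measured at most 9.4 and were below the filter, so this rests on the brightest probe set alone.

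The 6 genes below the filter were dim. Kif11, the motor that separates spindle poles, measured 24.9 in model 21 and 7.68 to 19.8 elsewhere. Bub1b, a spindle checkpoint kinase, measured 15 in model 21 and 7.21 to 10.3 elsewhere. Aurka and Aurkb, the Aurora kinases, were highest in control 41 (25.6 and 16.1), and Cenpa, the centromeric histone, lay at 5.06 to 6.93 on all arrays. Ccne1, cyclin E1, ranged from 8.54 to 17.9. With no filter all 43 genes were tested, and limma called 0 of them at an adjusted p under 0.05 in each comparison.

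Cdkn3 encodes a phosphatase that acts on CDKs and was listed with the inhibitors. It measured 41.3, 21.2 and 43.7 on treatment arrays, 148, 42.5 and 22.2 on model arrays and 55.4, 17.3 and 21.9 on control arrays. Model 21 was the highest, as for the mitotic genes, and the groups overlapped.

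Cdkn1c, encoding p57, had the widest range of the 37 genes, 3.71 on the log2 scale. It measured 944, 948 and 2008 in treatments 31, 32 and 33, 138, 143 and 986 in models 21, 22 and 23, and 357, 236 and 173 in controls 41, 42 and 43. All treatment arrays lay above all controls, and model 23 lay among the treatment arrays while models 21 and 22 lay below every control. Cdkn1c had a log2 fold change of 2.24 (SE 0.70, limma adjusted p = 0.178) in treatment against control, 2.09 (SE 0.70, adjusted p = 0.286) in treatment against model and 0.15 in model against control. The adjusted p in treatment against control was 0.0382 without model 23, which enters the shared estimate of the spread. No second probe set of Cdkn1c was named.

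Cdkn1b, encoding p27, measured 614, 383 and 604 on treatment arrays, 872, 1053 and 765 on model arrays and 403, 483 and 768 in controls 41, 42 and 43. The treatment arrays lay below the model arrays, and control 43 (768) lay beside the lowest model array (765). The log2 fold change was -0.75 (SE 0.26, limma adjusted p = 0.289) in treatment against model and 0.73 (SE 0.26, adjusted p = 0.352) in model against control. In model against control it was 0.99 (adjusted p = 0.0313) without control 43. A second, dimmer probe set also placed treatment below model, at -0.64.

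Cdkn1a, encoding p21, measured 75.5, 101 and 70 on treatment arrays, 104, 60.8 and 47.3 on model arrays and 147, 114 and 76.2 on control arrays. Its groups overlapped, with a log2 fold change of -0.58 (SE 0.28, limma adjusted p = 0.426) in model against control, which ran from -0.84 to -0.38 with single arrays left out. In treatment against model it was 0.22. Its second probe set measured 103 and 57.3 in controls 41 and 42 but 11.5 in control 43, below all other arrays, so the probe sets disagree for that array.

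**Figure D4:**
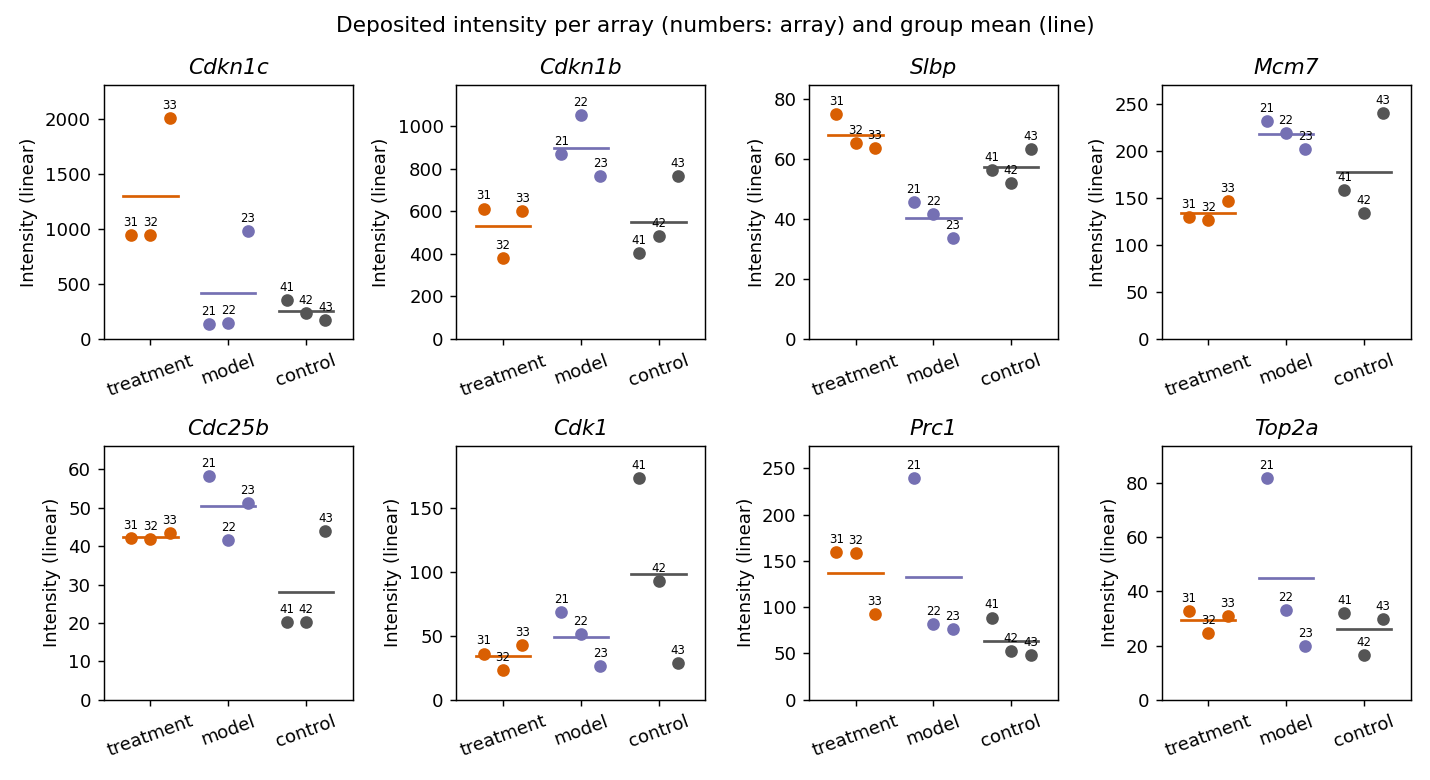
Each point is the deposited linear intensity of one array (number beside it) and each line a group mean, with treatment, model and control from left to right and axes starting at 0. Slbp, Mcm7 and Cdkn1b separate treatment from model without overlap, and Cdkn1c, Prc1 and Slbp separate treatment from control. Slbp also separates model from control. Cdk1 and Cdc25b show control 43 apart from controls 41 and 42.

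For the step into S phase, Ccnd2, a D-type cyclin, measured 247, 179 and 174 on treatment arrays, 460, 390 and 290 on model arrays and 195, 238 and 673 in controls 41, 42 and 43. All treatment arrays lay below all model arrays, and control 43 was the highest of the 9. The log2 fold change was -0.87 (SE 0.41, limma adjusted p = 0.365) in treatment against model, -0.64 (adjusted p = 0.44) in treatment against control and 0.23 (adjusted p = 0.814) in model against control. Without control 43 the last of these was 0.75 (adjusted p = 0.0598) and treatment against control was -0.12. Ccnd1, the cyclin D1 gene, ranged from 183 to 372 and Ccnd3 from 140 to 176. Cdk4 ranged from 234 to 347, and Cdk2 from 29 to 39.4 with the 3 model arrays just below the controls (-0.15, adjusted p = 0.452).

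Of the replication genes, Mcm7, a subunit of the MCM helicase, measured 130, 127 and 146 on treatment arrays, 231, 219 and 202 on model arrays and 158, 134 and 240 in controls 41, 42 and 43. The treatment arrays lay below all model arrays, and control 43 lay above them. The log2 fold change was -0.64 (SE 0.18, limma adjusted p = 0.286) in treatment against model and 0.31 (SE 0.18, adjusted p = 0.484) in model against control. The value in model against control was 0.53 (adjusted p = 0.023) without control 43. Mcm4, another helicase subunit, measured 50.5, 50.4 and 48.4 on treatment arrays, 80.5, 76.2 and 52.5 on model arrays and 81.7, 60.5 and 76.9 on control arrays. The treatment arrays were the lowest 3 of all 9, with log2 fold changes of -0.37 (SE 0.14, adjusted p = 0.32) against model and -0.43 (SE 0.14, adjusted p = 0.203) against control.

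Rrm1, the large subunit of ribonucleotide reductase, likewise had its 3 lowest values on the treatment arrays. It measured 50.1, 51.4 and 51.4 on treatment arrays, 78.2, 67.4 and 60.7 on model arrays and 80.5, 56 and 62.2 on control arrays. The log2 fold change was -0.33 (SE 0.12, limma adjusted p = 0.295) against model and -0.28 (SE 0.12, adjusted p = 0.284) against control. Tyms, thymidylate synthase, measured 20, 21.7 and 19.4 on treatment arrays, 21.2, 22.8 and 22.2 on model arrays and 23.9, 23.7 and 24.1 on control arrays. Its treatment and its model arrays both lay below the controls, with mean log2 differences of -0.13 for treatment and -0.07 for model. Pcna, the sliding clamp of replication, measured 449, 443 and 513 on treatment arrays, 401, 651 and 514 on model arrays and 505, 385 and 416 on control arrays. Its groups overlapped, with the highest value in model 22. Mcm2, Mcm3, Mcm5 and Mcm6 had log2 fold changes between -0.35 and 0.02 in the 3 comparisons, and Tk1, thymidine kinase, between -0.05 and 0.11.

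Slbp, which binds the stem-loop of histone mRNAs and is made in S phase, measured 74.8, 65.1 and 63.5 on treatment arrays, 45.5, 41.7 and 33.5 on model arrays and 56.2, 52.1 and 63.1 on control arrays. The model arrays were the lowest 3 and the treatment arrays the highest 3. The log2 fold change was 0.58 (SE 0.11, limma adjusted p = 0.286) in treatment against model and -0.38 (SE 0.11, adjusted p = 0.266) in model against control. In treatment against model it ranked number 13 by p among the 10973 genes, of which 0 passed. The Slbp probe set is of the kind that Affymetrix marks as shared between transcripts, and both other Slbp probe sets lay near the lowest values of the arrays, so this difference rests on 1 probe set.

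The 11 replication genes together were lower in treatment than in model for 8 genes and lower in treatment than in control for 8 genes, with medians of -0.13 in both comparisons. Positive log2 fold changes made up 38.9% and 42.2% of all genes in these comparisons. The 17 mitotic genes had medians of -0.25 in treatment against model and 0.22 in model against control, which were 0.10 and -0.03 without model 21. The sign of both mitotic medians thus turned when model 21 was left out.

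**Figure D5:**
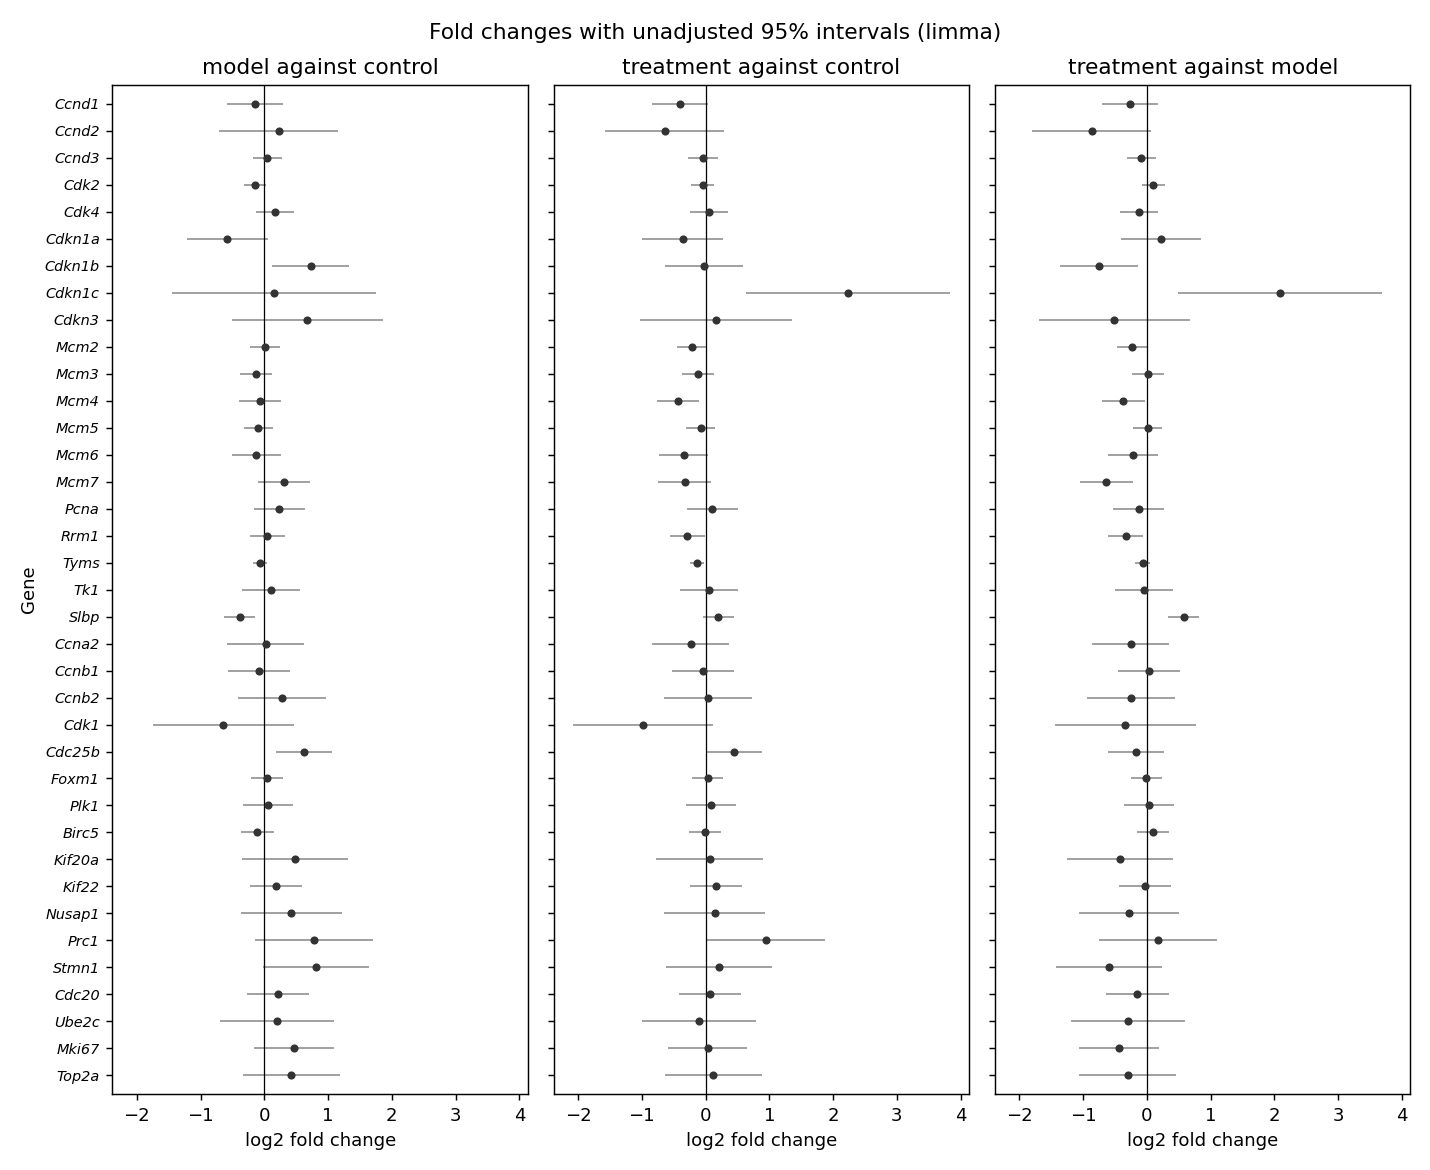
Points give the log2 fold change of each of the 37 genes in the 3 comparisons and bars its unadjusted 95% interval from limma. Most intervals include 0, and none of the 37 genes passed at an adjusted p under 0.05.

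Leaving out control 43 changed the calls. Over all genes, the number passing in model against control was 3 with it and 1372 without it. As control 43 was singled out from the same data, calls without it show sensitivity to that array and are not independent findings. In model against control 3 of the 37 genes passed (Cdc25b, Mcm7 and Cdkn1b, all higher), where 12.5% of all genes passed and 5.67% passed as higher. In treatment against control 2 of the 37 passed (Cdc25b higher and Cdk1 lower), where 6.55% of all genes passed, 1.5% as higher and 5.05% as lower. In treatment against model 0 of the 37 passed by limma and 0% of all genes did; 7 of the 37 had an unadjusted p under 0.05, where 21.5% of all genes had. Counted in both directions, the shares of the 37 passing against control were below those of all genes. Counted as higher calls alone, 3 of 37 and 1 of 37 were above them.

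Of 31 tested replication genes outside the list above (origin recognition, GINS, polymerase, clamp loader and RPA genes), 0 passed limma at an adjusted p under 0.05 in any comparison, with medians of -0.01 (model against control), -0.09 (treatment against control) and -0.09 (treatment against model). Unadjusted p was under 0.05 for 4, 4 and 1 of them, where 12.4%, 17.4% and 14.7% of all genes were. Rpa2, a subunit of the single-strand binding protein RPA, had the smallest p of the list in both treatment comparisons (-0.35 against control, adjusted p = 0.124, and -0.35 against model, adjusted p = 0.286, limma). Pola1, the catalytic subunit of DNA polymerase alpha, differed by 0.77 (adjusted p = 0.28) in model against control and by 0.80 (adjusted p = 0.151) in treatment against control.

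Of 32 further mitotic genes, 0 passed limma, with 1, 3 and 1 at an unadjusted p under 0.05 in the same order of comparisons (12.4%, 17.4% and 14.7% of all genes). Of the 32, 20 had their highest value in model 21, as 14 of the 17 listed ones did and 12.7% of all genes. Smc2, a condensin subunit, came nearest to the threshold, at 1.06 (SE 0.19, limma adjusted p = 0.0586) in treatment against control and 0.83 (adjusted p = 0.199) in model against control. Without control 43 Smc2 was 1.14 (adjusted p = 0.0218) and 0.91 (adjusted p = 0.0334), and it also passed in treatment against control without model 23 and with 1 in place of 16 added before log2. The median over these 32 was 0.15 (model against control), 0.01 (treatment against control) and -0.16 (treatment against model). Without model 21, -0.02 and 0.04 were the medians in model against control and treatment against model, so their signs turned as well.

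Of 26 E2F, RB and checkpoint genes 0 passed limma and 3, 7 and 4 had an unadjusted p under 0.05 (12.4%, 17.4% and 14.7% of all genes), with medians of -0.03 (model against control), -0.04 (treatment against control) and -0.12 (treatment against model). Cdkn2b, encoding the inhibitor p15, passed in model against control without control 43 (-0.26, adjusted p = 0.0354). Gadd45a, a stress-induced growth arrest gene, differed by 1.13 (limma adjusted p = 0.124) in treatment against control. Of 12 genes of uterine growth control, such as steroid receptors and growth factors, 0 passed limma and 1, 2 and 3 had an unadjusted p under 0.05 (12.4%, 17.4% and 14.7% of all genes), with medians of 0.07, -0.10 and -0.16 in the same order of comparisons. Mycn, a MYC family transcription factor, differed by 1.42 (adjusted p = 0.247, and 0.86 without control 43) in treatment against control and by 1.59 (adjusted p = 0.286) in treatment against model. Igf1, a growth factor, differed by -1.11 (adjusted p = 0.35) in treatment against model. Without control 43, 5 of these 12 genes passed in model against control, 3 higher and 2 lower, where 12.5% of all genes passed, among them Myc (0.72, adjusted p = 0.0389), Klf4 (-1.55, adjusted p = 0.0282) and Hbegf (-0.43, adjusted p = 0.021).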

How the data were processed

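Biotin-labelled RNA was hybridised to 9 arrays. The deposited values are 1 normalized intensity per probe set and array on a linear scale, from 1.8704 to 7895.6841, with array medians of 23.5565 to 24.0163. Per the submitters' processing notes the authors used MAS5. How it was set, how arrays were scaled and which probe sets were detected is not given in the sources used here, so the background level is unknown. Of 31042 non-control probe sets, 20826 had 1 gene symbol, 436 several and 9780 none; 20758 symbols were matched to RefSeq by gene ID. Analysis used log2(intensity + 16), a scale on which changes of dim genes are understated. Probe sets reaching the 40th percentile in 3 or more arrays were kept, and the highest mean stood for a gene. All 9 arrays entered 1 limma 3.58.1 fit (R 4.3.3, trended eBayes on 6 residual degrees of freedom, two-sided p, Benjamini-Hochberg adjustment across 10973 genes). The code was tested on simulated data. The cell cycle genes and all lists were chosen with earlier results of these data known. Values on every array were given for the 6 smallest p per comparison, the 6 widest ranges and the brightest gene of each role. Mki67, Ccnb2 and Ccna2 were added outside these rules. Alternatives changed the added constant, normalization, filter, variance trend, arrays fitted, probe sets and replicate block, and left out each array. The small number of arrays limits the precision. Figures used matplotlib 3.10.9 in Python 3.11.15.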

Additional observations from a re-analysis of the deposited data

How the results depend on the processing

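The counts of called cell cycle genes were 0 in every comparison and kept that value in 57 of 60 recomputations, which changed 1 choice at a time. With single arrays left out, the count ranged from 0 to 3 in model against control (3 without control 43), from 0 to 2 in treatment against control (2 without control 43, and 1, Cdkn1c, without model 23) and stayed at 0 in treatment against model. None of the 18 fold changes named by smallest p reversed its sign under any of the alternatives run, and 4 of their recomputations passed the threshold, each with an array left out. These 18 were picked by p from the same arrays, which by itself favours a stable sign. Median log2 fold changes of the cell cycle genes ran from -0.03 to 0.19 in model against control, from -0.09 to 0.10 in treatment against control and from -0.24 to 0.04 in treatment against model, so the sign of each changed. The last digit of the array number was used as a replicate block, under which 0 cell cycle genes passed in each comparison. Deviations of same-digit arrays from their group means correlated at -0.4082 to 0.3112, and 1 of 9 arrays correlated best with its own digit in both other groups. Group means of 3 arrays are too few for these correlations to decide whether same-digit arrays were paired. Tyms failed the filter at the 60th percentile, so it has no value there. With 3 arrays a group, intervals were wide, and the unknown background leaves dim genes such as Ccna2 and Mki67 uncertain.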
